A study of Mus musculus with 36 samples.

Results

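The data described here are the levels of 10 genes of the Notch pathway in sorted progenitor cells of the embryonic mouse kidney and in the corresponding cells made from mouse embryonic stem cells (mESC). The genes were taken by name from the study's table of 22761 genes, with no threshold on a measured value. They are the receptors *Notch1*, *Notch2* and *Notch3*, the ligands *Jag1*, *Jag2* and *Dll1*, and the target genes *Hes1*, *Hes5*, *Hey1* and *Heyl*. All 10 were found in the table. RNA sequencing had been made of 36 libraries in 9 groups of 4. Ex-fetu cells of CD1 embryos gave the ureteric bud (UB), nephron progenitors (NP) and stromal progenitors (SP) at embryonic days E11.5 and E12.5. Stem cells gave induced nephron and stromal progenitors (iNP and iSP, both from the E14 line and sorted from embryoid bodies) and the engineered ureteric bud (eUB, named iUB in the labels, from a line labelled Sox9-mCherry-mESC). No group carried a gene deletion. The stem cell derived groups had been made with Activin A, BMP4, FGF9, retinoic acid and the small molecules CHIR99021 and Y27632. The eUB protocol also used SB431542 and GDNF. The study's methods name no such treatment for the sorted ex-fetu cells, so that in contrasts with them treatment and cell source cannot be told apart.

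NP and iNP were gated as ITGA8high/PDGFRAlow and SP and iSP as ITGA8low/PDGFRAhigh, after removal of CD31 and of EpCAM/RET positive cells. RET and EpCAM were the markers for sorting UB, EpCAM and mCherry those for eUB. Ex-fetu samples each held the kidneys of 1 pregnant mouse's embryos, and each stem cell sample pooled the embryoid bodies of one differentiation batch, so that the n of 4 counts litters or batches, and each stem cell type comes from 1 line. For the UB samples the cell source label gives the other age than the title. The ages used here are those of the titles, and the direction of any change between E11.5 and E12.5 UB rests on them. Libraries held 13004352 to 52535113 reads on genes. Levels are given as normalised CPM, read counts scaled to library size and between libraries, in which 3 reads amounted to 0.0605 to 0.223, and a difference is given on the scale of log2(normalised CPM + 1). A change was called at a Benjamini-Hochberg adjusted p under 0.05 over all genes tested with limma.

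Notch receptors are held in the membrane of one cell and bind Jagged or Delta-like ligands on the surface of a neighbour. Binding leads to cleavage of the receptor by ADAM proteases and then by γ-secretase. The released intracellular part enters the nucleus and, with the DNA-binding protein RBPJ and a Mastermind-like coactivator, turns on target genes of the Hes and Hey families, which encode transcriptional repressors. In the developing kidney the pathway is known for its part in forming the renal vesicle and the proximal segments of the nephron from progenitors, with *Notch2* as the main receptor there. It also acts in the ureteric bud lineage and, through *Notch3*, in mural cells.

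The sequences before *Hes5*, *Dll1* and *Notch3* are given because these were the target, the ligand and the receptor with the largest difference between iNP and E11.5 NP. Each is the 250 bases before a RefSeq start site on GRCm38.p6, written 5′ to 3′ on the strand of the gene. Windows were matched for 7 of the 10 genes, and *Hes1*, *Hey1* and *Heyl* were not matched. Capitals mark the core of the RBPJ site, TGGGAA or its reverse complement TTCCCA. The *Hes5* window (chr4:154960673-154960922, plus strand) held 2 such matches, starting 82 bases before the start site on the strand of the gene and 226 bases before it on the other strand.
Hes5: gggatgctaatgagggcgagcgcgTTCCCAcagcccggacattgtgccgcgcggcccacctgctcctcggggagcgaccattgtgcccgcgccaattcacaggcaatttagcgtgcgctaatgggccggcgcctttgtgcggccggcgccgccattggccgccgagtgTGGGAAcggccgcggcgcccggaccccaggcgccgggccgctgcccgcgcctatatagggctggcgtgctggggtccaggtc
The windows of *Dll1* (chr17:15376933-15377182, minus strand) and *Notch3* (chr17:32166891-32167140, minus strand) held none.
Dll1: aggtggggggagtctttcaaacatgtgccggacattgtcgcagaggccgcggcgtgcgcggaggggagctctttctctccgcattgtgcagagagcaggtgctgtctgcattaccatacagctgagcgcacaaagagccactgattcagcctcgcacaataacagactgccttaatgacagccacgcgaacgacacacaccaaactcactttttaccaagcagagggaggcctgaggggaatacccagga
Notch3: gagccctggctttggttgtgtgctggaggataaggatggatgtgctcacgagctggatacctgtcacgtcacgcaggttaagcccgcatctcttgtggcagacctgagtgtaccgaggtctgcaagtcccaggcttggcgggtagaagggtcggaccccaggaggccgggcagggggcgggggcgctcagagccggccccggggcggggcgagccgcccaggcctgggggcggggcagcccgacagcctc
Of the 32851 windows of this length in the mouse table, 21.6% held the 6 letters at least once on either strand and 2.77% held them at least 2 times. Of the 8 windows of the matched genes, the *Hes5* window was the one that held any. A match of these letters is a description of the sequence, not a measured binding site.

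The receptors differed in where they were highest. *Notch1* (chr2:26457903-26516663, GRCm38, minus strand) stood at 356 ± 43.9 normalised CPM in E12.5 UB, 345 ± 34.4 in E11.5 UB and 298 ± 63.8 in eUB (SD, n = 4 throughout). These 3 ranges overlapped one another and lay above every library of the other 6 groups. Below them, *Notch1* ran from 160 ± 39.0 in E11.5 SP through iNP, E12.5 SP, E12.5 NP and E11.5 NP, each overlapping the next, to 70.2 ± 12.2 in iSP. The iSP libraries (59.2 to 81.5) lay below those of E11.5 NP (89.8 to 97.1).

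*Notch2* (chr3:98013527-98150361, plus strand) had its highest levels in ex-fetu NP, with 425 to 517 in the 4 libraries of E11.5 and 333 to 519 in those of E12.5. iNP had 284, 120.2, 362 and 337 in its libraries 1 to 4, and iSP 251 to 297. By group means the ureteric cells had the lowest, with 174.5 to 206 in E11.5 UB, 215 to 240 in E12.5 UB and 95.3 to 143 in eUB. The eUB libraries lay below every ex-fetu library, as did iNP library 2, and E11.5 SP (203 to 298) and E12.5 SP (216 to 311) overlapped the ex-fetu UB. *Notch3* (chr17:32120820-32166852, minus strand) had the reverse placing in nephron progenitors. It was at 69.0 to 107 in E11.5 NP and at 76.7 to 125 in E12.5 NP, below every library of the other 7 groups. The highest group mean of *Notch3* was that of iSP, with libraries at 355 to 405, but 1 library of E11.5 SP (358) and 1 of E12.5 UB (364) fell within that range.

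Of the ligands, *Jag1* (chr2:137081456-137116644, minus strand) was highest in E11.5 UB (184 to 241), then in iNP (144 to 226), E12.5 UB (129 to 185) and eUB (132 to 184), and each of these ranges overlapped the next. E12.5 NP (80.6 to 116) and E12.5 SP (47.3 to 87.7) followed, and iSP (18.0 to 25.2) lay below all other groups. *Dll1* (chr17:15367354-15376872, minus strand) stood at 60.6 to 71.4 in iNP, and the highest library of any other group was at 26.5. *Jag2* (chr12:112907819-112929776, minus strand) was low in all groups, with means from 3.92 in iSP to 13.2 in E11.5 UB, and its ranges overlapped among all ex-fetu groups except that E12.5 SP (2.56 to 7.85) lay below E11.5 NP (8.44 to 16.1) and below both UB groups (9.33 to 17.7).

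Of the target genes, *Hes1* (chr16:30064384-30067796, plus strand) was spread widely within several ex-fetu groups. It read 49.4, 150.2, 167 and 192 in E11.5 NP, 55.7, 85.7, 226 and 272 in E11.5 SP, and 60.2, 227, 272 and 257 in E12.5 SP. The library with the lowest *Hes1* was number 1 in each. E12.5 NP (69.2 to 151) and E12.5 UB (115.3 to 258) were also broad, whereas E11.5 UB held to 105 to 142. The stem cell derived groups had 220 to 302 in eUB, 44.4 to 50.3 in iSP and 28.4 to 47.3 in iNP. *Hey1* (chr3:8663359-8667256, minus strand) was highest in iNP at 151 to 175, then in E12.5 NP (65.9 to 129) and E11.5 NP (49.0 to 148), which overlapped each other, and was low in UB, with 13.2 to 18.2 at E11.5 and 14.0 to 16.2 in the libraries of E12.5 other than number 1 (47.5). *Heyl* (chr4:123233556-123249875, plus strand) was highest in E11.5 NP (71.1 to 98.9) and E12.5 NP (36.7 to 90.2), while eUB (5.91 to 8.13) and iSP (3.89 to 6.05) overlapped at the bottom.

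*Hes5* (chr4:154960923-154962371, plus strand) was near the limit of detection outside iNP. The 4 iNP libraries had 3.41, 7.15, 3.78 and 3.69 normalised CPM, from 97, 218, 129 and 162 reads. E12.5 UB library 1 had 3.52, from 86 reads, and its other 3 libraries had 0.0947 to 0.531. No other library had more than 10 reads of *Hes5*, and eUB had 0, 0, 0 and 1. The gene has 2 exon blocks of 1363 bases in all, of which 433 also lie in *Gm20421* on the other strand. Exons of *Notch1*, *Notch2*, *Notch3* and *Dll1* overlap other annotated genes as well, and whether the authors counted by strand is not given in the sources used here.

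**Figure D1:**
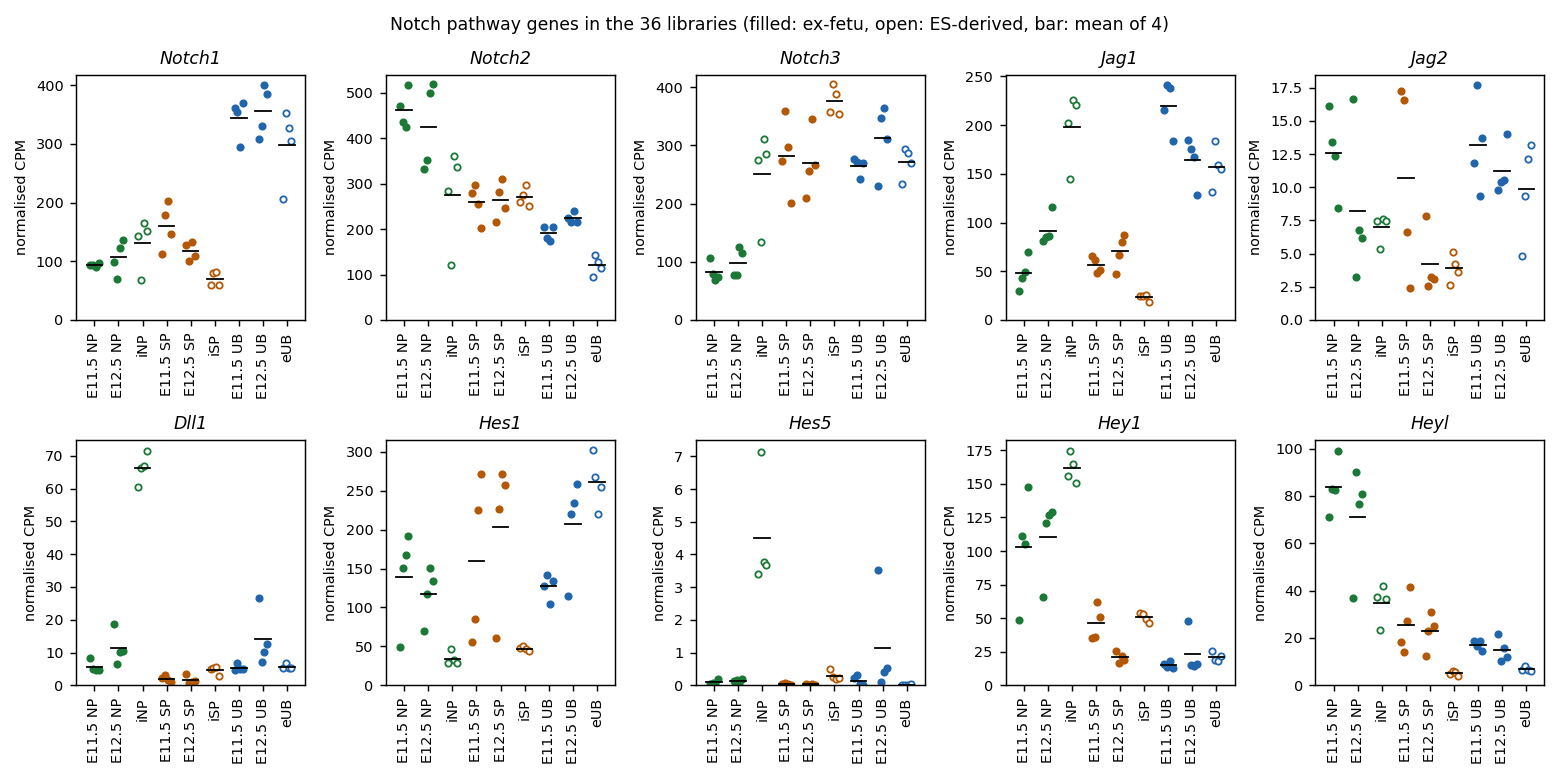
Level of each of the 10 Notch pathway genes in normalised CPM (vertical axis, from 0, own scale per gene) in the 4 libraries of each of the 9 groups (horizontal axis), with filled points for ex-fetu cells, open points for stem cell derived cells and a bar at the mean. *Dll1* in the 4 iNP libraries sits between 60.6 and 71.4, above every other library, and *Notch3* in the ex-fetu NP libraries sits below all other groups.

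Divided by the length of the exons in kilobases, levels can be compared between genes. In E11.5 NP, *Notch2* made up 71.9% of the summed receptor level per kilobase, with 68.8 to 75.04% in single libraries, and *Notch3* 17.1%. In iNP the receptors were closer, with *Notch2* at 38.1% (34.2 to 40.5%) and *Notch3* at 47.8% (45.7 to 51.1%). These ranges include iNP library 2, whose levels of all 3 receptors were the lowest of its group. E11.5 SP (*Notch2* 34.4%, *Notch3* 49.4%) and iSP (32.8% and 60.8%) had *Notch3* as the leading receptor, as had E11.5 UB (43.9%) and eUB (51.4%). Among the ligands, *Jag1* was 70.8% of the summed level per kilobase in E11.5 NP and 66.7% in iNP, while *Dll1* was 12.5% in E11.5 NP and 31.4% in iNP. Within E11.5 NP *Jag1* ran from 29.8 to 69.7 normalised CPM, so that the ligand shares of single libraries differ from these values. The shares were chosen after the levels had been seen and carry no test.

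**Figure D2:**
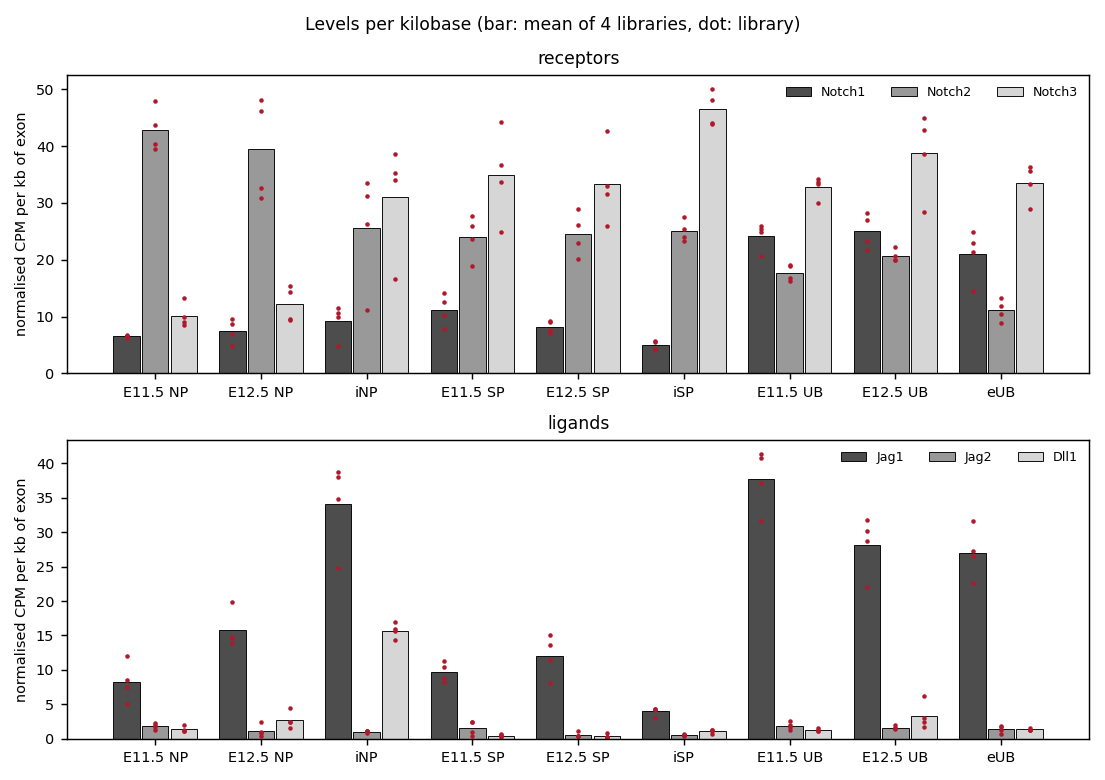
Mean level per kilobase of exon (vertical axis, normalised CPM per kb, from 0) of the receptors and the ligands in the 9 groups (horizontal axis), with 1 dot per library. *Notch2* is the tallest receptor bar in ex-fetu NP, and *Notch3* is taller than *Notch2* in iNP, SP, iSP, UB and eUB.

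The first question was how iNP differed from the ex-fetu cells they were made to resemble. Between iNP and E11.5 NP, the Notch ligand *Dll1* was over 11 times as abundant in iNP by the ratio of means (11.6), *Jag1* rose 4.12-fold and *Notch3* 3.05-fold, while the target genes *Hes1* and *Heyl* fell. In all, 9 of 10 genes were called (5 higher in iNP, 4 lower), where 64.7% of all genes tested were called. The median size of the difference was 1.41 over the 10 genes and 0.53 over all genes. *Hes5* is counted among the 10 but passed the filter on low values only through iNP, so that it had to differ, and its log2 difference of 2.29 is a description. Without it, 8 of 9 were called and the median size was 1.27.

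For *Dll1*, which encodes a Delta-like ligand, the libraries read 4.68 to 8.34 normalised CPM in E11.5 NP and 60.6 to 71.4 in iNP. The log2 difference was 3.35 ± 0.16 (SE, adjusted p = 2.3e-07) and stayed between 3.28 and 3.52 with any 1 library left out. *Jag1*, the ligand best known from the bile ducts and from nephron patterning, read 29.8, 43.5, 49.8 and 69.7 in E11.5 NP and 203, 144, 226 and 221 in iNP. The groups did not overlap, and the log2 difference was 2.06 ± 0.24 (adjusted p = 5e-05). *Jag2*, a ligand closely related to *Jag1*, went the other way, from 8.44 to 16.1 in E11.5 NP to 5.34 to 7.64 in iNP (log2 difference −0.75 ± 0.19, adjusted p = 0.006).

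The receptors moved in different directions. *Notch3* rose from 69.0 to 107 in E11.5 NP to 275, 135, 312 and 285 in iNP, without overlap (log2 difference 1.55 ± 0.25, adjusted p = 0.00047). *Notch2* fell by 0.86 ± 0.30 on the log2 scale (adjusted p = 0.029). The call was lost when any 1 of the E11.5 NP libraries was left out (adjusted p up to 0.072). *Notch1* read 89.8 to 97.1 in E11.5 NP and 142, 68.7, 165 and 152 in iNP, and its log2 difference of 0.42 was not called (adjusted p = 0.15). Without iNP library 2 the difference of *Notch1* was 0.70 (adjusted p = 6e-06) and that of *Notch2* −0.50 (adjusted p = 0.00087).

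The target genes did not move together. *Hes1* fell from 49.4 to 192 in E11.5 NP to 28.4 to 47.3 in iNP, and the ranges came close without overlapping (log2 difference −1.86 ± 0.38, adjusted p = 0.0018). *Heyl* fell from 71.1 to 98.9 to 23.2 to 41.9 (log2 difference −1.27 ± 0.18, adjusted p = 0.00017). *Hey1* was higher in iNP by 0.74 ± 0.28 (adjusted p = 0.038), with 49.0 to 148 in E11.5 NP and 151 to 175 in iNP. That call was lost without E11.5 NP library 2 or 3 or without any 1 of the iNP libraries (adjusted p up to 0.073).

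Several marker lists moved with these differences. The summed level of 6 genes known from the renal vesicle, the first epithelium made from NP (*Wnt4*, *Lhx1*, *Pax8*, *Fgf8*, *Pou3f3* and *Bmp2*), was 133 to 288 in E11.5 NP, 255 to 388 in E12.5 NP and 427 to 513 in iNP. Of the 6, 4 were called higher in iNP than in E11.5 NP (3 of 5 without the 1 that passed the filter through iNP alone). The list was not particular to cells made from NP. Its sum was 249 to 281 in E11.5 UB, 376 to 425 in E12.5 UB and 317 to 466 in eUB. The sum of 7 neural genes was 6.09 to 11.5 in E11.5 NP and 46.4 to 70.8 in iNP. Of the 7, 6 passed the filter through iNP alone, so that their calls carry no weight, and the other was called higher. In iNP all 7 had means of at least 1, and in E11.5 NP 2 of them had. The sum of 8 endothelial genes was 15.5 to 42.8 in E11.5 NP and 68.3 to 111 in iNP, with 8 of 8 called higher (4 of 4 without those that passed through iNP alone), although CD31 positive cells had been gated out. The sum of 5 mural genes was 45.9 to 92.1 and 122 to 179, with 2 called higher and 1 lower. Sums were also higher in iNP for 6 SP markers (290 to 327 and 386 to 536), 8 UB markers (36.5 to 64.3 and 105 to 133) and 8 early response genes, which can rise on dissociation of tissue (754 to 903 and 1160 to 1427). Of the SP markers 4 were called higher and 1 lower, and *Foxd1* had a mean of 62.8 in E11.5 NP and 7.08 in iNP. Of the UB markers 5 were called higher and 0 lower, and of the early response genes 5 higher and 2 lower. Macrophage and presomitic sums overlapped between the groups. The sum of 7 NP markers was 1153 to 1287 in E11.5 NP and 480.1 to 706 in iNP, where 5 of 7 were called lower and 1 higher. Among the 7, *Six2* had a mean of 590.2 in E11.5 NP and 139 in iNP, and *Cited1* 31.3 and 2.95. In bulk samples fewer cells of a type and less RNA per cell cannot be told apart, and the part of these markers in the Notch gene differences was not tested.

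**Figure D3:**
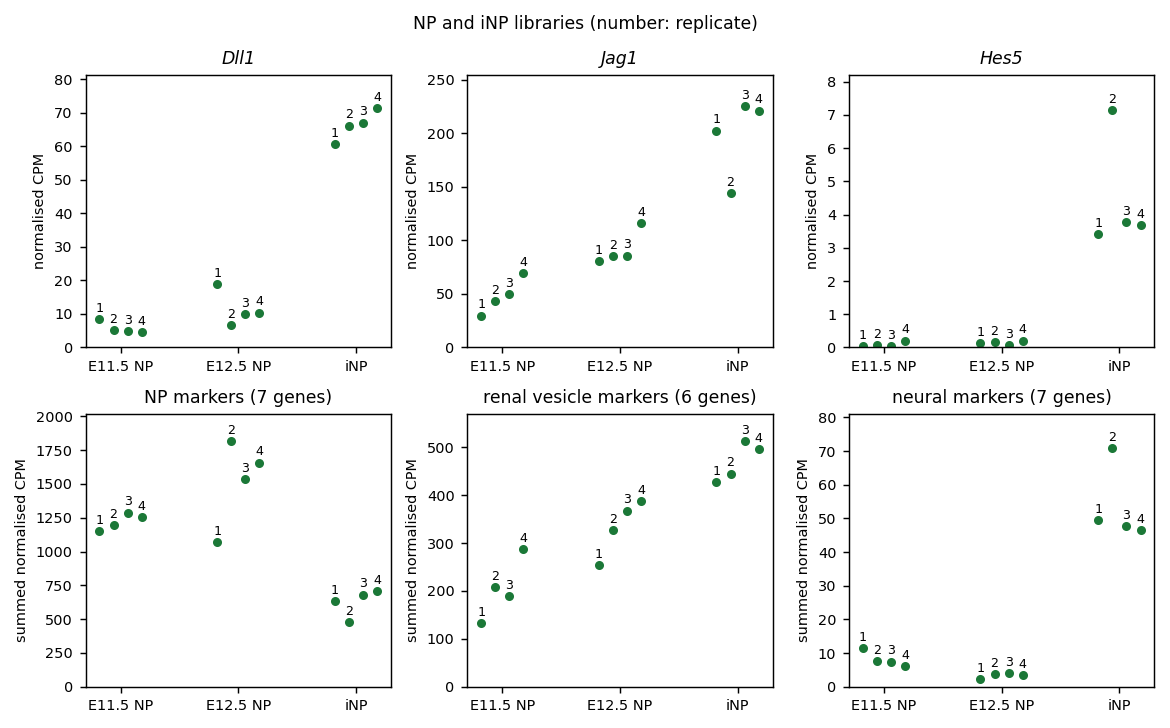
Levels of *Dll1*, *Jag1* and *Hes5* and summed levels of the NP, renal vesicle and neural marker lists (vertical axes, normalised CPM, from 0) in the E11.5 NP, E12.5 NP and iNP libraries, marked by replicate number (horizontal axis, groups). iNP library 2 has the highest *Hes5* (7.15) and neural sum (70.8) of its group and the lowest *Jag1* (144) and NP marker sum (480.1).

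Set against E12.5 NP, 7 of 10 genes were called (5 higher, 2 lower), where 44.3% of all genes tested were called. *Hes5* is again among them through iNP alone, and without it 6 of 9 were called. Both comparisons use the same iNP libraries, so they are not independent. *Dll1* read 18.8, 6.65, 10.03 and 10.4 in E12.5 NP, below every iNP library (log2 difference 2.52 ± 0.25, adjusted p = 3.2e-05). The differences were 1.31 ± 0.28 for *Notch3* (adjusted p = 0.0039), 1.10 ± 0.18 for *Jag1* (adjusted p = 0.00076) and −1.72 ± 0.25 for *Hes1* (adjusted p = 0.00041). *Heyl* was lower in iNP (−0.97 ± 0.29, adjusted p = 0.021), with 36.7 to 90.2 in E12.5 NP overlapping 23.2 to 41.9 in iNP. Its call was lost without E12.5 NP library 2, 3 or 4 or iNP library 2 (adjusted p up to 0.059). *Hey1* was higher by 0.59 (adjusted p = 0.043), a call lost without any 1 of the iNP libraries (adjusted p up to 0.091). *Notch2* was not called (−0.71, adjusted p = 0.1). The neural (2.25 to 4.17), endothelial (16.3 to 38.1), mural (38.8 to 65.8), UB (35.7 to 99.1), SP (282 to 329) and NP marker sums (1067 to 1817) of E12.5 NP lay outside the iNP ranges too, and their part was not tested.

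In stromal progenitors the ligand *Jag1* changed the other way. Between iSP and E11.5 SP, 6 of 9 genes tested were called (2 higher in iSP, 4 lower), where 67.6% of all genes tested were called, and the median size of the difference was 0.99 over the 9 genes and 0.54 over all. *Jag1* read 48.2 to 65.9 in E11.5 SP and 18.0 to 25.2 in iSP (log2 difference −1.26 ± 0.14, adjusted p = 3.6e-05). *Notch1* read 112 to 202 in E11.5 SP and 59.2 to 81.5 in iSP (−1.16 ± 0.19, adjusted p = 0.00041). Neither pair of ranges overlapped.

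The targets *Heyl* and *Hes1* fell in iSP too. *Heyl* read 18.4, 14.1, 27.2 and 41.5 in E11.5 SP and 3.89 to 6.05 in iSP (−2.02 ± 0.29, adjusted p = 0.00018). For *Hes1* the E11.5 SP libraries ran from 55.7 to 272 and all 4 iSP libraries lay below them (−1.46 ± 0.44, adjusted p = 0.015). *Dll1* was low in both groups, at 0.884 to 3.16 in E11.5 SP and 2.94 to 5.58 in iSP, with overlapping ranges and a log2 difference of 0.99. It reached 1 normalised CPM in 3 libraries of E11.5 SP and 2 of E12.5 SP, and so passed the filter through the other group wherever iSP, NP or UB is compared with these, so that its differences there are descriptions although it stands in the counts. Without *Dll1*, 5 of 8 genes were called against E11.5 SP and 6 of 8 against E12.5 SP in iSP, 5 of 8 and 4 of 8 in NP, and 4 of 8 and 3 of 8 in UB. *Notch3* was higher in iSP by 0.44 (adjusted p = 0.03), a call lost without E11.5 SP library 1, iSP library 2 or iSP library 3 (adjusted p up to 0.076). *Jag2* was not called (−0.99, adjusted p = 0.094) and was called without E11.5 SP library 4 (−1.48, adjusted p = 0.0015). Against E12.5 SP, with the same iSP libraries, 7 of 9 were called (3 higher, 4 lower), where 62.1% of all genes were. *Hey1* was the addition, at 16.6 to 25.7 in E12.5 SP and 46.1 to 53.5 in iSP (1.26 ± 0.13, adjusted p = 3.9e-05). Marker sums that did not overlap between E12.5 SP and iSP included endothelial (28.3 to 38.3 and 50.45 to 74.7) and NP (52.3 to 73.3 and 305 to 329). They also included SP (3446.5 to 5723.7 and 1661.5 to 1763.5) and mural (140.02 to 249 and 65.6 to 87.3), and their part was not tested.

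The markers that define SP also differed between these groups. The sum of 6 SP markers was 2670.2 to 4349.5 in E11.5 SP and 1661.5 to 1763.5 in iSP, with 3 called lower and 2 higher. *Foxd1*, the transcription factor that defines renal stroma, had a mean of 410.4 in E11.5 SP and 15.2 in iSP. The sum of the 7 NP markers was 94.5 to 154 in E11.5 SP and 305 to 329 in iSP, with 3 called higher and 2 lower. Among them *Six2* had a mean of 20.5 in E11.5 SP and 13.4 in iSP. Mural markers summed to 266 to 353 in E11.5 SP and 65.6 to 87.3 in iSP, with 4 of 4 tested called lower (3 of 3 without the 1 that passed the filter through E11.5 SP alone). UB markers, of the cells with the highest *Notch1*, summed to 130 to 302 in E11.5 SP and 83.4 to 94.3 in iSP, with 5 of 8 called lower and 1 higher (3 and 1 of 6 by the same restriction). Neural (10.1 to 16.4 and 3.45 to 5.51) and macrophage sums (0.572 to 1.001 and 0.101 to 0.435) were lower in iSP without overlap as well, while endothelial, renal vesicle and early response sums overlapped. The list of presomitic genes was almost wholly *Dusp4* (152.6 and 29.7 by means), with its other 4 genes near 0. The part of these markers in the differences of the Notch genes was not tested.

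In the ureteric bud the target genes split. Between eUB and E11.5 UB, 5 of 9 genes tested were called (2 higher in eUB, 3 lower), where 60.5% of all genes tested were called, so that the share was near the background. The median size was 0.45 over the 9 and 0.41 over all genes. *Hes1* read 128, 142, 105 and 134 in E11.5 UB and 302, 268, 220 and 255 in eUB, with no overlap (log2 difference 1.03 ± 0.12, adjusted p = 4.8e-05). *Heyl* fell from 14.6 to 18.7 in E11.5 UB to 5.91 to 8.13 in eUB (−1.24 ± 0.12, adjusted p = 1.7e-05).

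*Notch2* fell from 174.5 to 206 in E11.5 UB to 95.3 to 143 in eUB (−0.68 ± 0.12, adjusted p = 0.0009). *Jag1* fell by 0.48 on the log2 scale (adjusted p = 0.0055), and *Hey1* rose by 0.45 (adjusted p = 0.014). For *Notch1*, *Notch3*, *Jag2* and *Dll1* the adjusted p was between 0.22 and 0.78. The interval of the difference at the 95% level ran from −0.16 to 0.23 for *Notch3* and from −0.22 to 0.36 for *Dll1*. Macrophage markers had a mean sum of 40.6 normalised CPM in E11.5 UB and 0.323 in eUB. Mural markers summed to 45.2 to 72.4 and 6.24 to 10.6, UB markers to 3321 to 3588 and 2776 to 3007, neural markers to 21.6 to 31.5 and 12.9 to 20.2, and renal vesicle genes to 249 to 281 and 317 to 466, each without overlap. The sum of the early response genes was 1708 to 2437 in E11.5 UB and 4351 to 6827 in eUB. Their part in the result was not tested.

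Against E12.5 UB, 3 of 9 genes were called, all lower in eUB, where 44.4% of all genes were. *Notch2* fell by 0.90 (adjusted p = 0.00046) and *Heyl* by 0.999 (adjusted p = 0.0051). *Dll1* was lower by 1.01 (adjusted p = 0.032), a call lost without E12.5 UB library 4 or any 1 of the eUB libraries (adjusted p up to 0.073). *Hes1* did not reach the threshold (0.39, adjusted p = 0.21). Between E12.5 UB and eUB the sums of macrophage (23.4 to 40.1 and 0.223 to 0.429), mural (16.5 to 89.1 and 6.24 to 10.6), presomitic (89.5 to 134 and 202 to 226) and early response genes (2156 to 2289 and 4351 to 6827) did not overlap, and their part was not tested. With the ages taken from the cell source label, all E11.5 and E12.5 values of UB against eUB given here change places, those of *Hes1* and *Heyl* included. *Hes1* would then be called against E12.5 (1.03) and not against E11.5 (0.39).

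E12.5 UB library 1 stood apart from its group. Its NP marker sum was 326 against 30.4 to 41.3 in the other 3 libraries, its SP marker sum 375 against 17.2 to 34.2, and its UB marker sum 1894 against 2886 to 3049. It also had the highest *Dll1* (26.5 against 7.05 to 12.5), *Hey1* (47.5 against 14.0 to 16.2) and *Hes5* (3.52) of the UB groups. Without it, eUB differed from E12.5 UB by −0.67 for *Dll1* (adjusted p = 0.015), by 0.45 for *Hey1* (adjusted p = 0.017) and by −0.33 for *Notch3* (adjusted p = 0.024).

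**Figure D4:**
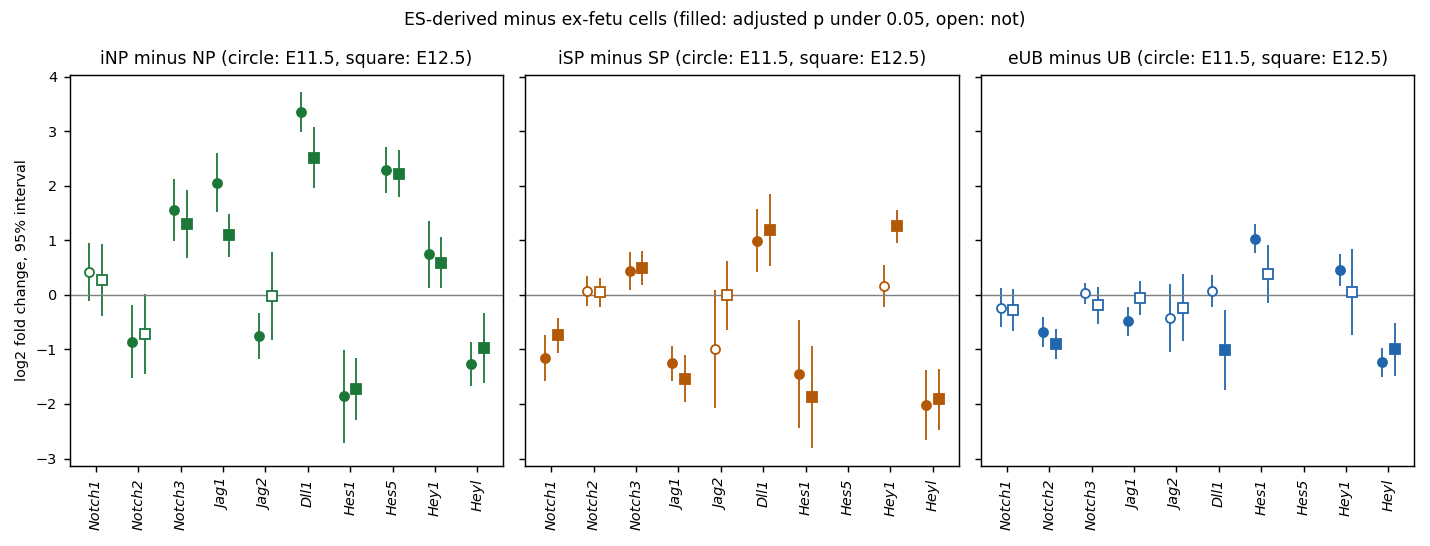
Log2 difference of stem cell derived minus ex-fetu cells (vertical axis, on log2(normalised CPM + 1), with 95% intervals) for each gene (horizontal axis) in NP, SP and UB, with circles against E11.5, squares against E12.5 and filled marks for adjusted p under 0.05. *Heyl* lies below 0 and is filled in all 6 comparisons, and *Hes1* lies below 0 in NP and SP and above 0 in UB.

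The change from ex-fetu to stem cell derived cells differed between cell types for several genes. This was tested as a difference of differences over 16 libraries, with E11.5 as the ex-fetu age by the titles. The eUB came from another stem cell line, protocol and sorting gate than iNP and iSP. In tests with eUB these cannot be told apart from cell type, and the same holds for eUB against iNP and iSP below. Between UB and NP, 5 of 10 genes were called, where 47.1% of all genes were. The difference was 2.89 for *Hes1* (adjusted p = 4.2e-05), −2.54 for *Jag1* (adjusted p = 1.9e-06), −3.28 for *Dll1* (adjusted p = 3.9e-09) and −1.52 for *Notch3* (adjusted p = 4e-04). *Hes5*, tested through iNP alone, was the other, and without it 4 of 9 were called. *Notch1* was not called (−0.65, adjusted p = 0.092), but was without iNP library 2 (−0.94, adjusted p = 0.00069). With the UB ages of the cell source label, 5 were called again, at 2.24 for *Hes1*, −2.12 for *Jag1*, −4.37 for *Dll1*, −1.74 for *Notch3* and −3.14 for *Hes5*. The share of 47.1% is that by the titles.

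Between UB and SP, 5 of 9 were called, where 47.4% of all genes were. The gap was 2.49 for *Hes1* (adjusted p = 0.00059), followed by *Notch1* (0.92, adjusted p = 0.0081), *Jag1* (0.78, adjusted p = 0.0029) and *Notch2* (−0.75, adjusted p = 0.0026). That of *Dll1* was −0.92. It is a description although the gene stands in the counts, because *Dll1* passed the filter through groups other than E11.5 SP. With the UB ages of the cell source label 7 of 9 were called, the gap of *Dll1* being −2.01 and that of *Jag1* 1.20, and *Notch3* (−0.63, adjusted p = 0.031) and *Heyl* (1.02, adjusted p = 0.04) the additions. The share of 47.4% is that by the titles, so that the count of 7 has no share of all genes beside it. Between NP and SP, 5 of 10 were called, all higher on the NP side, where 29.3% of all genes were called. *Jag1* differed by 3.32 (adjusted p = 4.1e-07), *Notch1* by 1.58 (adjusted p = 0.0014) and *Notch3* by 1.11 (adjusted p = 0.015). *Hes5* was also called, and 4 of 9 were called without it. *Dll1*, which is among these 4, differed by 2.36, a description for the reason given above. *Heyl*, which was lower in stem cell derived cells of all 3 types, was not called in any of these 3 tests (adjusted p = 0.064 to 0.92). Without E11.5 SP library 2 it was called between UB and SP and between NP and SP, and without E11.5 SP library 1 between UB and SP (lowest adjusted p 0.0091). *Notch3* was called between UB and SP without E11.5 SP library 2 (−0.53, adjusted p = 0.013), and *Notch2* between NP and SP without iNP library 2, 3 or 4 (lowest adjusted p 0.014).

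Within each ex-fetu cell type E12.5 was set against E11.5. In NP, 1 of 9 was called, where 6.34% of all genes were (850 genes, and 147 to 2249 with 1 library left out). *Jag1* rose from 29.8 to 69.7 at E11.5 to 80.6, 85.1, 85.7 and 116 at E12.5, without overlap (0.97 ± 0.23, adjusted p = 0.041). The call was lost without E11.5 NP library 1, 2 or 3 or E12.5 NP library 3 or 4 (adjusted p up to 0.12). *Dll1* was at 4.68 to 8.34 and then 6.65 to 18.8 and was not called (0.84, adjusted p = 0.11). It was called without E12.5 NP library 2 (adjusted p = 0.042), and *Jag2* was without E12.5 NP library 1 (−1.10, adjusted p = 0.023). Of the marker sums only the neural one differed without overlap (6.09 to 11.5 and 2.25 to 4.17).

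In SP, 1 of 9 was called, where 8.52% of all genes were (1162 genes, and 392 to 2889 with 1 library left out). *Hey1* fell from 35.3 to 62.3 at E11.5 to 16.6 to 25.7 at E12.5 (−1.09 ± 0.21, adjusted p = 0.014), and without E12.5 SP library 4 it was not called (adjusted p = 0.058). *Jag2* was called without E11.5 SP library 4 (−1.48, adjusted p = 0.045). Marker sums that were lower at E12.5 without overlap included those of mural (266 to 353 and 140.02 to 249), UB (130 to 302 and 86.5 to 123), NP (94.5 to 154 and 52.3 to 73.3), neural (10.1 to 16.4 and 3.35 to 4.44) and renal vesicle genes (41.5 to 52.0 and 31.3 to 40.2), and their part in the *Hey1* difference was not tested.

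In UB, by the titles, 3 of 9 were called, where 26.5% of all genes were (3648 genes, and 2332 to 5982 with 1 library left out). *Dll1* was higher at E12.5 by 1.09 (adjusted p = 0.034), *Notch2* by 0.23 (adjusted p = 0.044), and *Jag1* lower by 0.43 (log2 difference −0.43, adjusted p = 0.033). Each of these 3 calls was lost without 1 of at least 5 different libraries (adjusted p up to 0.087, 0.11 and 0.092), namely E11.5 UB library 1, 2 or 3 and E12.5 UB library 4 for all 3 genes, E11.5 UB library 4 for *Dll1*, and E12.5 UB library 2 or 3 for *Notch2* and *Jag1*. Without E12.5 UB library 1, *Hes1* (0.90, adjusted p = 1.1e-05), *Notch3* (0.36, adjusted p = 0.00078) and *Heyl* (−0.43, adjusted p = 0.025) were called as well. UB marker sums (3321 to 3588 and 1894 to 3049) and renal vesicle sums (249 to 281 and 376 to 425) also differed between the ages without overlap, and their part in these differences was not tested.

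The cell types of one source were compared next. Between E11.5 NP and SP, 6 of 9 genes were called, where 43.1% of all genes were. NP had more *Heyl* (1.79, adjusted p = 0.00068), *Hey1* (1.08, adjusted p = 0.02) and *Notch2* (0.84, adjusted p = 0.00053), and less *Notch3* (−1.75, adjusted p = 6.4e-05) and *Notch1* (−0.73, adjusted p = 0.0048). *Dll1* was higher in NP by 1.22, which is a description, and 5 of 8 were called without it. The *Hey1* call was lost without E11.5 NP library 2, 3 or 4 or E11.5 SP library 1 or 2 (adjusted p up to 0.06). Sums that did not overlap between E11.5 NP and SP included those of mural (45.9 to 92.1 and 266 to 353), UB (36.5 to 64.3 and 130 to 302) and early response genes (754 to 903 and 1899 to 2480). Their part was not tested.

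At E12.5, 5 of 9 were called between NP and SP, where 34.8% of all genes were. *Hey1* differed by 2.33, *Heyl* by 1.59 and *Notch3* by −1.45 (adjusted p = 0.0047 at most). For *Dll1* the difference of 2.26 is a description, and 4 of 8 were called without it. *Notch2* differed by 0.67 (adjusted p = 0.018), a call lost without E12.5 NP library 3 or 4 or E12.5 SP library 4 (adjusted p up to 0.057). In this comparison libraries of the same number deviated together, and a fit blocked on replicate number called 8 of 9. Over all 13772 genes tested, calls rose with the block from 4789 to 7961. The additions were *Jag2* (0.73, adjusted p = 0.0044), *Jag1* (0.40, adjusted p = 0.016) and *Hes1* (−0.63, adjusted p = 0.025). Without the block *Hes1* was called when E12.5 SP library 1 was left out (−1.14, adjusted p = 0.0067). In that library *Hes1* was 60.2 against 227 to 272 in the others, and the sum of the early response genes was 6477 against 1396 to 2060. Their part in the result was not tested.

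Between iNP and iSP the ligands *Dll1* and *Jag1* were further apart than between E11.5 NP and SP, by the difference of differences given above, which for *Dll1* is a description. Here 8 of 10 genes were called (7 higher in iNP), where 30.7% of all genes were, and 7 of 9 without *Hes5*, which was tested through iNP alone. *Dll1* (60.6 to 71.4 in iNP, 2.94 to 5.58 in iSP) differed by 3.58 and *Jag1* (144 to 226 and 18.0 to 25.2) by 3.04 (adjusted p = 1.3e-06 for *Jag1*). *Heyl* differed by 2.54, *Hey1* by 1.66 and *Jag2* by 0.71 (adjusted p = 0.012 at most). *Hes1* was lower in iNP (−0.47, adjusted p = 0.04) and *Notch1* higher (0.84, adjusted p = 0.035), and both calls were lost without any 1 library of the 8 other than iNP library 2 (adjusted p up to 0.11 and 0.099). Without iNP library 2, *Notch2* differed by 0.27 (adjusted p = 0.026) in place of −0.09 (adjusted p = 0.86), and *Notch3* by −0.37 (adjusted p = 0.00096) in place of −0.65 (adjusted p = 0.065). *Notch3* was called without iNP library 3 as well. Sums that did not overlap between iNP and iSP included those of neural (46.4 to 70.8 and 3.45 to 5.51), renal vesicle (427 to 513 and 26.2 to 44.4), mural (122 to 179 and 65.6 to 87.3) and early response genes (1160 to 1427 and 1817 to 2270), and their part was not tested.

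Between ureteric bud and nephron progenitors 6 of 9 genes were called at each age, where 60.2% of all genes were called at E11.5 and 32.7% at E12.5. UB had more *Notch1* (1.87 at E11.5 and 1.76 at E12.5), *Notch3* (1.69 and 1.67) and *Jag1* (2.22 and 0.83), and less *Hey1* (−2.595 and −2.347), *Heyl* (−2.22 and −2.16) and *Notch2* (−1.27 and −0.90), with an adjusted p of 0.0025 at most. *Hes1* was not called at E11.5 (0.02, adjusted p = 0.96), but without E11.5 NP library 1 it was lower in UB (−0.42, adjusted p = 0.0036). At E12.5 it was called without E12.5 UB library 1 (1.06, adjusted p = 0.0092), and *Jag2* was called without E12.5 NP library 1 (0.96, adjusted p = 0.014). With the UB ages of the cell source label 7 of 9 were called at each age, *Dll1* being added as higher in UB against E11.5 NP (1.04, adjusted p = 0.028) and lower against E12.5 NP (−0.88, adjusted p = 0.016). The shares of 60.2% and 32.7% are those by the titles, so that the counts of 7 have no share of all genes beside them.

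Between eUB and iNP, 7 of 10 were called, where 52.2% of all genes were, and 6 of 9 without *Hes5*, which again was tested through iNP alone. *Hes1* was higher in eUB by 2.91 and *Notch1* by 1.21, and *Dll1* was lower by 3.33, *Hey1* by 2.88, *Heyl* by 2.19 and *Notch2* by 1.09 (log2 differences −3.33, −2.88, −2.19 and −1.09, adjusted p = 0.018 at most). The *Notch2* call was lost without iNP library 1, 3 or 4 (adjusted p up to 0.053). *Jag1* was called without iNP library 2 (−0.47, adjusted p = 0.0081) and *Jag2* without eUB library 1 (0.65, adjusted p = 0.0086). Sums that did not overlap between eUB and iNP included early response (4351 to 6827 and 1160 to 1427) and neural genes (12.9 to 20.2 and 46.4 to 70.8). Mural (6.24 to 10.6 and 122 to 179) and endothelial genes (24.2 to 27.6 and 68.3 to 111) were others, and their part was not tested.

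Against SP, 5 of 9 were called in UB at E11.5, 4 of 9 at E12.5 and 7 of 9 in eUB against iSP, where 53.6%, 46.4% and 64.7% of all genes were. *Notch1* was higher in the ureteric cells in each (1.13, 1.59 and 2.06), as was *Jag1* (1.94, 1.23 and 2.71), with an adjusted p of 0.00073 at most. *Dll1*, which passed the filter through UB, was higher there by 1.18 at E11.5 and 2.46 at E12.5 as a description, and without it 4 of 8 and 3 of 8 were called. In eUB and iSP it differed by 0.26 with an interval from −0.13 to 0.64 (adjusted p = 0.22). With the UB ages of the cell source label *Dll1* differed by 2.26 and 1.38, and 4 and 6 of 9 were called. The shares of 53.6% and 46.4% are those by the titles and do not belong to these counts. *Hes1* was not called in the ex-fetu cells (−0.05 and 0.17, adjusted p = 0.93 and 0.8) and was higher in eUB than in iSP by 2.44. It ran from 55.7 to 272 in E11.5 SP and from 60.2 to 272 in E12.5 SP, so that the missing calls do not show equal levels. Calls that appeared without a single library were those of *Heyl* without E11.5 SP library 2 (adjusted p = 0.038), of *Notch2* and *Heyl* without E12.5 SP library 1 (0.02 for both) and of *Heyl* between eUB and iSP without iSP library 2 or eUB library 1 (lowest adjusted p 0.033).

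A wider list of 40 other genes of the pathway was examined in the same fits. Between iNP and E11.5 NP, 30 of 39 tested were called (19 higher, 11 lower, 76.9%), between iSP and E11.5 SP 26 of 38 (16 higher, 10 lower, 68.4%), and between eUB and E11.5 UB 25 of 35 (12 higher, 13 lower, 71.4%). The shares of all genes called were 64.7%, 67.6% and 60.5%, as above. Some of these genes passed the filter through one group alone, namely *Dll3*, *Dll4*, *Hes7*, *Mfng* and *Neurl1b* through iNP, *Dll4* and *Hes7* through iSP, and *Aph1c* through E11.5 UB. Without them 25 of 34 (73.5%), 24 of 36 (66.7%) and 24 of 34 (70.6%) were called. The median size of the difference was then 0.68 over the list in iNP, 0.55 in iSP and 0.45 in eUB, against 0.53, 0.54 and 0.41 over all genes.

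In iNP the top rise was that of *Nrarp*, which encodes a feedback inhibitor of the Notch intracellular domain and is itself a target. It stood at 2.43 to 2.60 in E11.5 NP and 25.9 to 33.1 in iNP (3.11 ± 0.11, adjusted p = 3.4e-08), so that *Nrarp* and *Hes1* moved in opposite directions. *Dtx4*, of the Deltex ubiquitin ligases, rose from a mean of 9.31 to 42.7 (2.09, adjusted p = 1.6e-06). The endothelial ligand *Dll4* was at 0.323 in E11.5 NP and 4.16 in iNP. The coactivator *Maml1* fell by 1.39 and *Fbxw7*, a ubiquitin ligase that marks the active receptor for breakdown, by 1.25 on the log2 scale (adjusted p = 8.6e-05 at most).

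In iSP the genes with the greatest changes were *Dll4* (0.588 to 3.69 by means), *Maml3* (25.6 to 71.0) and the glucosyltransferase gene *Poglut1* (32.7 to 69.2) upwards (*Dll4* having passed the filter through iSP), and *Fbxw7* (58.3 to 19.3), *Hey2* (9.51 to 3.85) and *Maml1* (284 to 134) downwards. The adjusted p of the 5 others than *Dll4* was 0.00012 at most. In eUB the named genes were the ligand-directed ubiquitin ligase gene *Neurl1a* (10.2 to 34.3), *Maml3* (23.4 to 41.4) and *Maml2* (11.6 to 20.5) upwards, and downwards *Lfng* (21.8 to 6.23) and *Rfng* (21.3 to 10.6), which encode Fringe enzymes that add sugars to the receptor. Their adjusted p was 0.013 at most, and the ranges of *Maml3* and *Maml2* overlapped between the groups.

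The 3 comparisons with E11.5 share no library. Of the 34 wider genes tested in all of them, 6 were called higher in each (*Maml2*, *Maml3*, *Ncstn*, *Neurl1a*, *Pofut1* and *Poglut1*) and 6 lower in each (among them *Dtx2*, *Fbxw7*, *Itch*, *Maml1* and *Rfng*), which is 35.3%. Of 12780 genes tested in all 3, 27.4% were called in one direction throughout (1888 higher, 1619 lower). Among the 9 Notch genes tested in all 3, *Heyl* was the one so called.

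**Figure D5:**
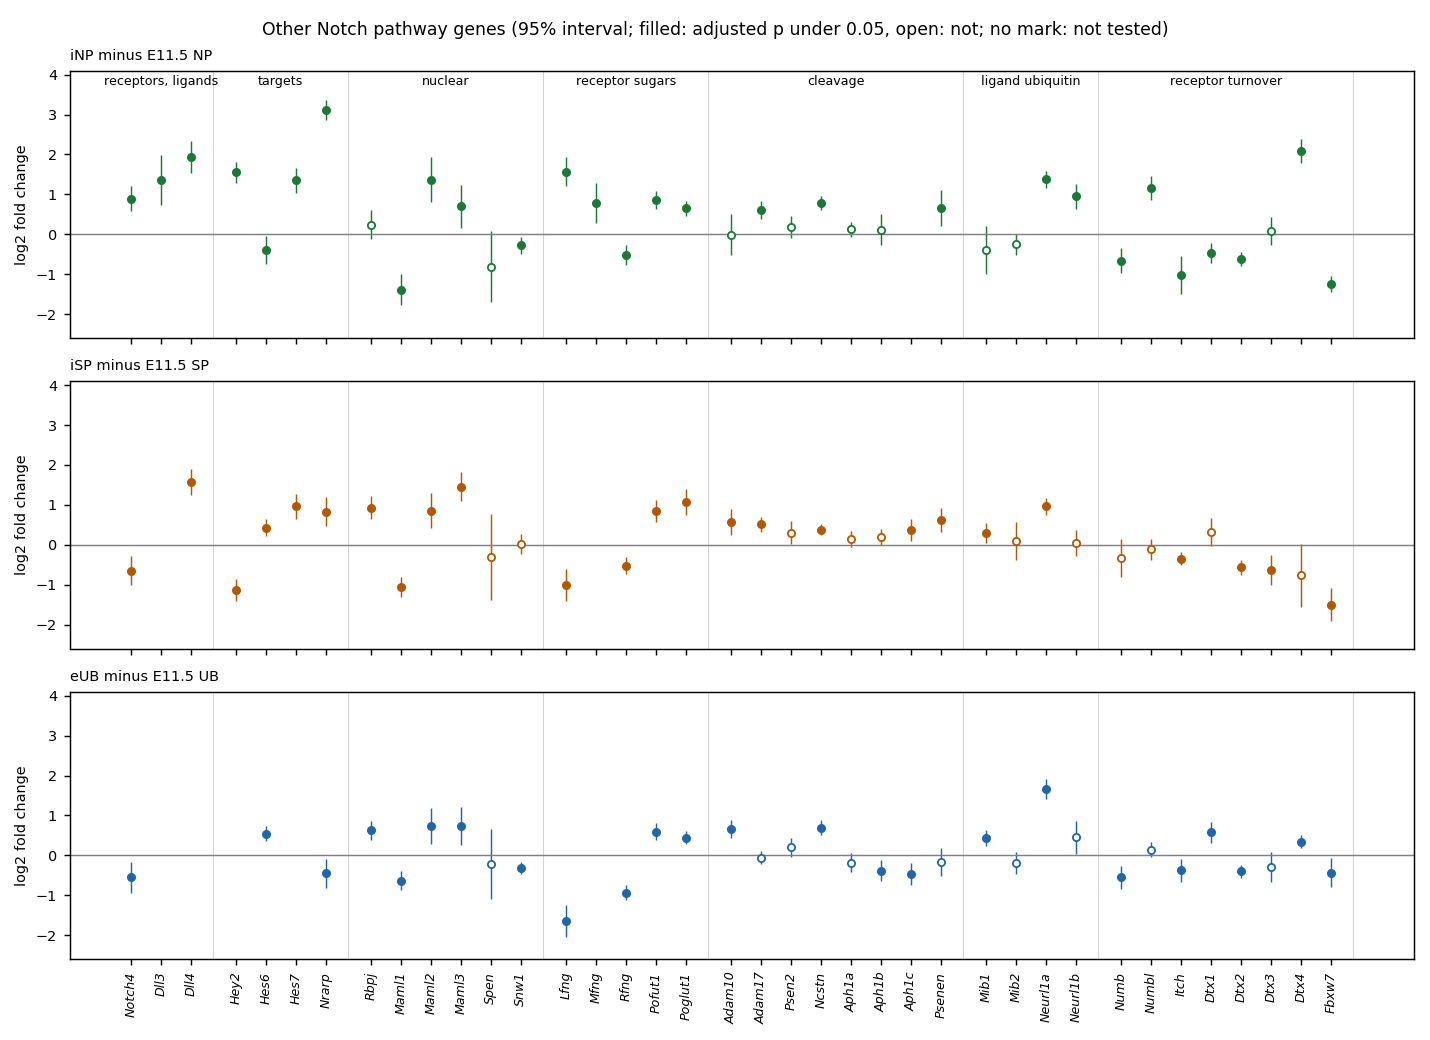
Log2 difference of stem cell derived minus E11.5 ex-fetu cells (on log2(normalised CPM + 1), with 95% intervals) for 38 of the 40 other genes of the pathway in NP, SP and UB, with filled marks for adjusted p under 0.05. *Nrarp* stands farthest from 0, at 3.11 in NP.

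Genes with the most similar pattern were sought among 16001 genes by Pearson's correlation of log2 levels across the 36 libraries. Libraries of a group are alike, so that these values describe 9 groups more than 36 points, and no test was made. The nearest to *Notch1* were *Samd5* (0.9468) and *Usp43* (0.9356), to *Notch2* *Xylt1* (0.9139) and *Zfp516* (0.9072), and to *Notch3* *Atp9a* (0.9359) and *App* (0.9287), with r in parentheses. For the ligands they were *Ccnd1* (0.9133) and *Pamr1* (0.8869) for *Jag1*, *Phkg2* (0.8645) and *Camta1* (0.8586) for *Jag2*, and *Hcn2* (0.916) and *Irx4* (0.8793) for *Dll1*. For the targets they were *Abhd2* (0.8394) and *Tmod3* (0.835) for *Hes1*, *Olig3* (0.9525) and *Lefty2* (0.9522) for *Hes5*, *Col13a1* (0.9305) and *A730017C20Rik* (0.923) for *Hey1*, and *Phf19* (0.9004) and *St6galnac5* (0.8983) for *Heyl*. *Olig3* is a neural transcription factor gene and *Lefty2* encodes a Nodal antagonist. The highest r of any gene was lowest for *Hes1* (0.839).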

How the data were processed

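mRNA of 36 libraries was sequenced from a stranded kit. Per the study's methods, reads were trimmed with cutadapt and aligned with STAR. The genome is written there as GRCh38 although the gene identifiers are those of mouse. The counting program is not given in the sources used here. The authors deposited, per gene, a normalised signal (CPM scaled by edgeR factors), and 100% of the values gave back whole reads within 0.001 of a read. A second deposited table held the authors' group means, fold changes, p-values and FDR, and was not used. Columns left without a sample numbered 0.

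The 8 libraries of each pair of groups were fitted with limma 3.58.1 in R 4.3.3 on log2(value + 1), with a mean-variance trend, for genes at 1 or more in at least 4 of the 8 libraries, and p-values were adjusted by Benjamini-Hochberg over all genes. There were 18 pairwise comparisons and 3 tests of a difference between cell types. Alternatives were edgeR 4.0.16 and DESeq2 1.42.0 on the recovered reads, other scalings, filters and pseudocounts, all 36 libraries in one fit, the replicate number as a block, and leaving out each library. By a correlation of deviations over 0.1 in every pair, replicate numbers paired E12.5 NP and SP (r 0.543 to 0.70 and 8 of 8 closest to their own number) and no other groups. The lowest correlation between replicates was 0.977. The scripts were tested on simulated data. Intervals and limits of detection cover counting error or the spread between libraries only.

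The 10 genes, the gene lists and the tests were chosen with earlier results of these data known. All 10 genes were described, and of the 40 other pathway genes those named with values were the 3 called with the largest rise and the 3 with the largest fall against E11.5 in each cell type, apart from 2 genes that are not reported here. Others were named after their values were seen, as members of a count. Genes alike were the 2 with the highest r. Coordinates and exon lengths are from GENCODE vM21 on GRCm38. Protein sequences were not used here.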

Additional observations from a re-analysis of the deposited data

Results flagged for a closer look

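Several libraries stood apart from the other 3 of their group in a Dixon test, which flags about 1 group in 20 by chance, and 12 of 90 sets of gene and group were so marked. In iNP library 2, *Notch1* was 68.7 (142 to 165 in the others), *Notch3* 135 (275 to 312), *Jag2* 5.34 (7.42 to 7.64) and *Hes5* 7.15 (3.41 to 3.78). In the number 1 libraries, *Dll1* was 8.34 in E11.5 NP, *Hes1* 60.2 in E12.5 SP, *Hey1* 65.9 in E12.5 NP and *Hey1* 47.5 in E12.5 UB. The others were *Jag1* at 116 in E12.5 NP library 4, *Jag1* at 18.0 in iSP library 4, *Dll1* at 6.85 in eUB library 2 and *Hes5* at 0.0354 in eUB library 4, which is 1 read.

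The difference between stem cell derived and E11.5 ex-fetu cells was itself different between cell types for these genes, by limma with adjusted p under 0.05. Between UB and NP the values were 2.89 for *Hes1*, −1.52 for *Notch3*, −2.54 for *Jag1*, −3.28 for *Dll1* and −2.47 for *Hes5*. Between UB and SP they were 2.49 for *Hes1*, 0.92 for *Notch1*, −0.75 for *Notch2*, 0.78 for *Jag1* and −0.92 for *Dll1*. Between NP and SP they were 1.58 for *Notch1*, 1.11 for *Notch3*, 3.32 for *Jag1*, 2.36 for *Dll1* and 1.98 for *Hes5*. The 2 values of *Hes5* are descriptions, because the gene passed the filter through iNP. Those of *Dll1* between UB and SP and between NP and SP are descriptions too, because it passed through groups other than E11.5 SP.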

How the results depend on the processing

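Of the 111 called results of the 10 genes, 89 kept their direction and their call under every alternative that gave a value. Outside the left-out libraries, 1848 results stayed on their side of the threshold, 37 lost and 41 gained a call and 7 reversed. With a library left out the numbers were 1662, 74, 30 and 2. The cause was not tested except where a label was exchanged. With UB ages from the cell source label, *Dll1* in eUB minus E11.5 UB was −1.01 and in eUB minus E12.5 UB 0.074, and the genes called numbered 3 and 5 in place of 5 and 3. Extended to the other comparisons of UB, which was chosen after seeing the data, this gave −0.23 for *Notch2*, 0.43 for *Jag1* and −1.09 for *Dll1* between the ages, and 1.04 and −0.88 for *Dll1* in UB minus E11.5 and E12.5 NP. *Notch2* in iNP minus iSP was 0.27 without iNP library 2 (−0.26 to 0.27 over all left-out libraries), and *Hes1* in E11.5 UB minus E11.5 NP was −0.42 without E11.5 NP library 1 (−0.42 to 0.23). Between E12.5 and E11.5 UB, 3 genes were called, 0 without a filter, and 1 each in one fit of 36 libraries and with the replicate block. Between E12.5 and E11.5 NP, 1 was called, 0 without a filter, with a filter of 5 and by edgeR, and 2 by DESeq2 and with the block. For E12.5 NP minus SP the block gave 8 in place of 5.

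With 1 library left out, the genes called numbered 2 to 5 in eUB minus E12.5 UB, 4 to 7 in iNP minus E12.5 NP, 5 to 9 in iNP minus iSP, and between the ages 0 to 6 in UB, 0 to 2 in SP and 0 to 2 in NP. Over all genes, calls between the ages were 1162 in SP (762 with a filter of 5, 2097 by DESeq2, 2987 in one fit, 787 with the block), 850 in NP (469, 1912 and 1528) and 3648 in UB (2365 with the block), and 4789 between E12.5 NP and SP (7961 with the block). The share called higher was 53.5% between UB ages and 40.3% with upper-quartile scaling, 56.3% in E12.5 UB minus NP and 44.7% with quantile normalisation, and 59.5% and 47.4% in the test between NP and SP. Upper-quartile scaling put the median of eUB minus iNP at −0.12. Replicate numbers paired no other groups by the check. Elsewhere the block changed the calls of *Dll1* in eUB minus E12.5 UB (adjusted p = 0.051), *Notch2* in iNP minus E12.5 NP (0.031), *Notch1* in iNP minus iSP (0.071), *Hes1* in E12.5 UB minus NP (0.002), *Heyl* in eUB minus iSP (0.015), *Dll1* in E12.5 minus E11.5 NP (0.037), and *Notch2* and *Dll1* in E12.5 minus E11.5 UB (0.11 and 0.06).

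*Hes5* was not tested with an iNP library left out or under the filter of 5. Changes in genes below a few normalised CPM are understated by the pseudocount.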

Other observations

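Across the 6 ex-fetu groups, the library numbered 1 had the lowest *Hes1* of its group in 5, the highest *Jag2* in 4 and the highest *Dll1* in 4. The labels give no meaning to the number.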
